A study of Homo sapiens with 8 samples.

Results

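VWA5A, PXMP2 and SNX15 are 3 target genes of the telomere-binding zinc finger protein ZBTB48, which also occupies gene promoters. They were taken by name, as 3 of the 20033 protein-coding genes of GENCODE release 44, and were followed through every H3K4me3 peak within 3 kb of any of their annotated 5′ ends. This gave 17 peaks of the 139749 in the 6 peak lists, 3 in each library except KO replicate 3, which had 2. Chromatin immunoprecipitation sequencing (ChIP-seq) for H3K4me3 had been carried out in U2OS, a human osteosarcoma line that keeps its telomeres without telomerase. The WT group was 3 wild-type U2OS clones and the KO group was 3 ZBTB48 knockout clones of the same line, 1 library per clone. Interferon gamma (IFNγ) had been given to both groups at 250 U/ml over 24 h, so none of the comparisons is with untreated cells. The 2 WT input libraries of the series were not used here.

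H3K4me3, trimethylation of lysine 4 on histone H3, marks the nucleosomes around active transcription start sites. It is usually highest just inside the gene, on the nucleosomes that follow the start site, and where a pair of genes is transcribed away from each other from a shared promoter the mark spreads into both. The 3 genes work in unrelated places. VWA5A encodes a cytoplasmic protein with a von Willebrand factor A domain, PXMP2 a channel-forming protein of the peroxisomal membrane, and SNX15 a sorting nexin of the endosome.

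The promoters of the genes are shown because each result below is a distance from their 5′ ends. The RefSeq table (build GRCh38.p14) matched 2 of the 3 genes, PXMP2 and SNX15, and not VWA5A. Each window runs from 250 bases before the 5′ end to 50 bases from it on, 300 bases in all, and both windows were identical to the GRCh38 sequence at their coordinates. PXMP2 is at chr12:132687337-132687636 and SNX15 at chr11:65027189-65027488, both on the plus strand. Below them stand the repeated units of probes b and e, 30-base oligonucleotides with which the study assayed ZBTB48 binding at the CIITA promoter. Their GRCh38 positions, chr16:10877053-10877082 and chr16:10877105-10877134, were found by matching. Capitals mark the letters AGGGAG, which both probes hold, or CTCCCT, the same letters read from the other strand. The study narrowed binding to shorter probes. The CIITA oligonucleotide of its crystal structure carries the site that the study mapped from probe e. That sequence is not contained in the unit printed here for probe e, and it holds AGGGAT and not AGGGAG. The capitals are therefore letters that the printed probes share, and not a sequence common to both mapped sites.
PXMP2 promoter: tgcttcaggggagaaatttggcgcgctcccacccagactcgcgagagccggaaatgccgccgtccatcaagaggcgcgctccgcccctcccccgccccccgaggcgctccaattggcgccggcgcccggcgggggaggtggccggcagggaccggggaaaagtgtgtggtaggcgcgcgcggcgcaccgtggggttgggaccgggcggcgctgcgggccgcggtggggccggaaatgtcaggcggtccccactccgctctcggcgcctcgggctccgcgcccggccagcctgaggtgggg
SNX15 promoter: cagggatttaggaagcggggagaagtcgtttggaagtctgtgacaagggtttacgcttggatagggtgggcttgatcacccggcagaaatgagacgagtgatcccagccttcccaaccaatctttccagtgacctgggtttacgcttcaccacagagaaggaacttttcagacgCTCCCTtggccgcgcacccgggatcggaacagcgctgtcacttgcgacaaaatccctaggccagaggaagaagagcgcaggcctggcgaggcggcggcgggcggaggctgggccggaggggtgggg
CIITA probe b: cttaAGGGAGtgtggtaaaattagagggtg
CIITA probe e: cttggggccaccttgcAGGGAGagtttttt

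SNX15 held AGGGAG once, on the minus strand, from 76 to 71 bases before the 5′ end. PXMP2 held it nowhere in its window, and 35.3% of all 35114 RefSeq promoters of the same length held it on either strand. Neither window held TTAGGG, the telomere repeat, on either strand, which 9.05% of all promoters did. These matches are letters in a window and not binding sites. AGGGAT, which the SNX15 window also holds, was neither counted nor capitalised. The windows were unlike in base composition, with a GC content of 75.7% at PXMP2, higher than in 91.7% of all promoters, and 60.0% at SNX15, higher than in 53.2%. The PXMP2 window held 41 CpG dinucleotides and the SNX15 window 20. POLE, which encodes the catalytic subunit of DNA polymerase epsilon, starts 245 bp from PXMP2 on the opposite strand, and 256 bases of its promoter window (chr12:132687293-132687592, minus strand) are those printed for PXMP2.

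The kind of list bears on every width below. Median peak width was 2297 and 2353 bp in WT replicates 1 and 2, but 1487 bp in WT replicate 3 and 1275 to 1388 bp in the KO libraries, and the median fold enrichment per peak was 13.4 and 14.0 against 4.19 to 4.65. Which of the lists, if any, were called against an input library is not given in the sources used here, and this bears on fold enrichment and on width across lists. Covered length, the bases that peaks take up in the 3 kb before and the 3 kb after the main 5′ end (that of the MANE Select transcript), was above every KO library in every WT library at 50.8% of 14422 covered promoters, and WT replicate 3 was above every KO library at 54.4%. Such a separation is therefore common in these lists, and each result is also given for WT replicate 3 alone against the KO libraries. That comparison, within 4 lists of like kind, carries no test. Of the U2OS-type mesenchymal markers, 3 of 5 were called in all 6 lists and TWIST1 and COL1A2 in none. Beside them, 1 of 5 B cell and 1 of 5 epithelial markers were called in all 6, and the epithelial ESRP1 in 5. Of all 20033 protein-coding promoters 13036 were called in all 6, so the marker counts are no check of cell identity. With 3 libraries against 3 the two-sided exact permutation test over the 20 assignments cannot go below p = 0.1, so no difference here could pass 0.05. Libraries come from separate clones, and clone and culture cannot be told apart.

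At all 3 genes the peak was shorter in every KO library than in any WT library, but not on the same side. At VWA5A and SNX15 the peak reached less far into the gene in every KO library that had one, with no VWA5A peak in KO replicate 3, and the upstream edges of the genotypes overlapped. At PXMP2 the edge inside the gene was at nearly the same place in WT replicate 3 and in every KO library, and the edge on the POLE side lay closer to the 5′ end in every KO library. The map of the peaks by distance from the 5′ end shows the 3 layouts.

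**Figure D1:**
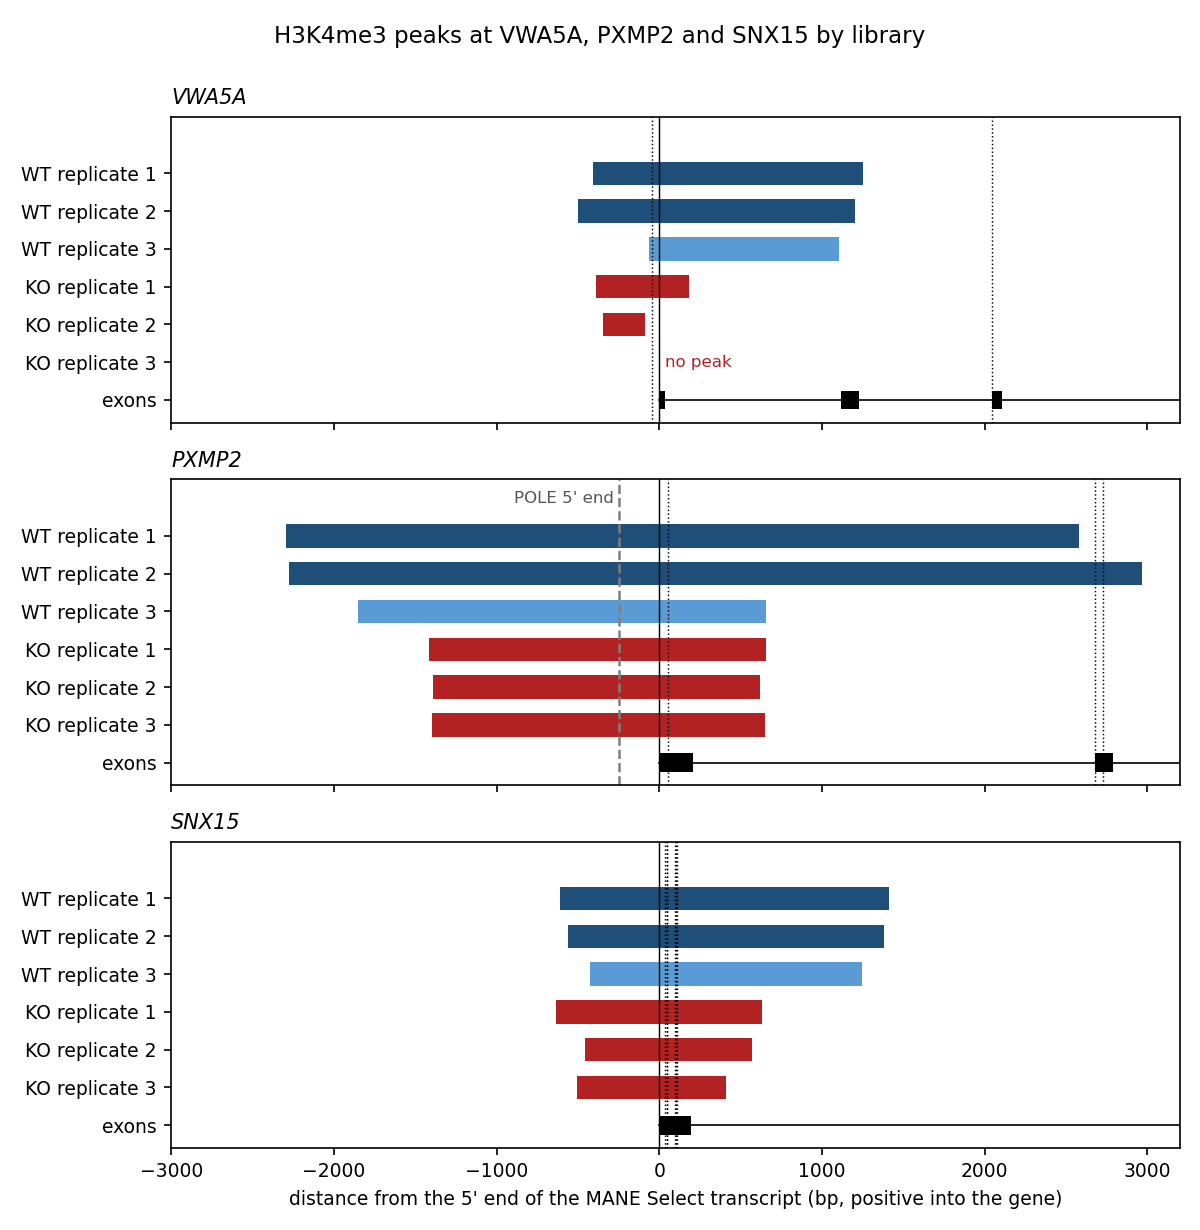
H3K4me3 peaks of the 6 libraries (rows) at VWA5A, PXMP2 and SNX15, by distance in bp from the main 5′ end (x axis, positive into the gene). Bars are peaks (dark blue, WT replicates 1 and 2, light blue, WT replicate 3, red, KO), dotted lines other annotated 5′ ends, black boxes exons. The WT bars reach 1106 to 1251 bp into VWA5A, where the longest KO bar ends at 182 bp, and the 4 lower bars at PXMP2 end between 621 and 658 bp.

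VWA5A lies on chromosome 11 (ENSG00000110002, plus strand) with its main 5′ end at 124115450. The peak started 409, 497 and 66 bp before that position in WT replicates 1, 2 and 3, and 391 and 348 bp before it in KO replicates 1 and 2. KO replicate 3 had no peak within 3 kb. Upstream starts thus overlapped, and WT replicate 3 had the shortest reach of the 5 peaks.

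On the gene side the VWA5A peak ended 1251, 1202 and 1106 bp after the 5′ end in the WT libraries, which is in or beside exon 2 (124116566 to 124116680). In KO replicate 1 it ended 182 bp after the 5′ end, within the first intron, since exon 1 is only the first 33 bases. In KO replicate 2 it ended 88 bp before the 5′ end, at chr11:124115102-124115362, so that it lay wholly upstream of the gene. Peaks that reached exon 2, or stopped just short of it, were thus found in WT libraries and in no KO library. A mark shortened in every cell and one lost from some of the cells cannot be told apart in such bulk libraries.

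Downstream covered length at VWA5A was 1252, 1203 and 1107 bp in WT and 183, 0 and 0 bp in KO. Every WT library was above every KO library, with a difference of 1126 bp (WT 1187 ± 73.8, KO 61.0 ± 106, SD, n = 3, exact permutation p = 0.1), as at 47.1% of all promoters. WT replicate 3 was above every KO library downstream at 50.3% of 14281 promoters, but its lead over the highest KO library, 924 bp here, was as large at only 0.896%. Upstream covered length was 409, 497 and 66 bp in WT and 391, 261 and 0 bp in KO, which overlapped (difference 107 bp, exact permutation p = 0.5). This upstream difference rests on KO replicate 3, and without that library it was -2 bp.

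The KO mean downstream of VWA5A was 5.51% of the WT replicate 3 value, and 0.991% of promoters kept as little, where the median promoter kept 92.3%. The remaining KO peaks were weak ones in their own lists. In KO replicate 1 the fold enrichment stood at percentile 26.6 of that list with a −log10 q of 3.71, and in KO replicate 2 at percentile 9.11 with 1.82. The WT peaks stood at fold enrichment percentiles 42.4, 38.5 and 87.2. By −log10 q they stood at percentiles 39.2, 37.2 and 34.4, against 14.7 and 3.18 in KO replicates 1 and 2. With only peaks of at least 4-fold enrichment kept, no KO list had a VWA5A peak and all 3 WT lists did. That cut is just under the median of the KO lists and far under that of WT replicates 1 and 2, and under it 0.46% of the 7393 promoters with a peak over the 5′ end in 3 WT libraries had one in no KO library.

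VWA5A has 6 annotated transcripts starting at 3 positions. The 5′ ends at 124115404, for 3 transcripts, and at 124115450, for 2, lay under a peak in 3 of 3 WT libraries and 1 of 3 KO libraries, KO replicate 1. The 5′ end at 124117495, of 1 transcript, lay under no peak in any library. A main 5′ end under a peak in 3 WT libraries and at most 1 KO library was found at 1.68% of the 12748 promoters under a peak in 3 WT libraries. Counted per library, the 5′ ends under a peak were 2, 2 and 2 in WT and 2, 0 and 0 in KO (exact permutation p = 0.4).

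SNX15 lies on the same chromosome (ENSG00000110025, plus strand), 59.1 Mb away, with its main 5′ end at 65027439. Its peak kept its place over the 5′ end in all 6 libraries. The upstream edge was 612, 563 and 429 bp before the 5′ end in WT and 637, 458 and 508 bp before it in KO. The genotypes were interleaved, with the shortest reach in WT replicate 3 and the longest in KO replicate 1.

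Inside SNX15 the peak ended 1412, 1379 and 1247 bp after the 5′ end in WT, and 631, 572 and 411 bp after it in KO. All of these edges lay in the first intron, which follows an exon of 198 bases and runs to exon 2, 4729 bp from the 5′ end. The edge of the lowest WT library was 616 bp beyond that of the highest KO library.

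Downstream covered length at SNX15 was 1413, 1380 and 1248 bp in WT and 632, 573 and 412 bp in KO. The genotypes did not overlap, as at 47.1% of promoters. The difference was 808 bp (WT 1347 ± 87.3, KO 539 ± 114, SD, n = 3, exact permutation p = 0.1), and the 616 bp lead of WT replicate 3 was reached by 2.63% of promoters. Upstream covered length averaged 535 ± 94.7 bp in WT and 534 ± 92.4 bp in KO (SD, n = 3, exact permutation p = 1). The KO mean was 99.9% of the WT mean upstream, where the median promoter had 61.5%, and 40.0% downstream, where the median promoter had 66.3%.

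Scaling each library by its median covered length over 13399 promoters, an alternative chosen after the data were seen, changed part of this. Scaled downstream covered length at SNX15 was 986, 984 and 1466 bp in WT and 757, 753 and 573 bp in KO, still without overlap, as at 4.65% of promoters. Scaled upstream length was 427, 402 and 504 bp in WT and 763, 602 and 707 bp in KO, every KO library above every WT library, as at 12.0% of promoters. Scaled total covered length overlapped at SNX15, with a difference of 205 bp (exact permutation p = 0.5), and was separated at 5.75% of promoters, VWA5A and PXMP2 among them. At VWA5A the scaled downstream length was 874, 858 and 1300 bp in WT and 219, 0 and 0 bp in KO, again without overlap.

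The 2 measures of strength that the lists give did not move alike at SNX15. Its fold enrichment stood at percentiles 43.9, 42.7 and 69.7 of the WT lists and at 88.5, 84.7 and 90.6 of the KO lists. The −log10 q stood at percentiles 42.8, 43.9 and 52.6 of the WT lists and at 56.5, 40.6 and 45.4 of the KO lists, which overlapped. As the fold enrichment is an average over a peak, a short peak at the summit and a long one with shoulders are not measured alike, and no test was made. All 7 annotated 5′ ends of SNX15, within 109 bp of each other, lay under a peak in all 6 libraries.

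**Figure D2:**
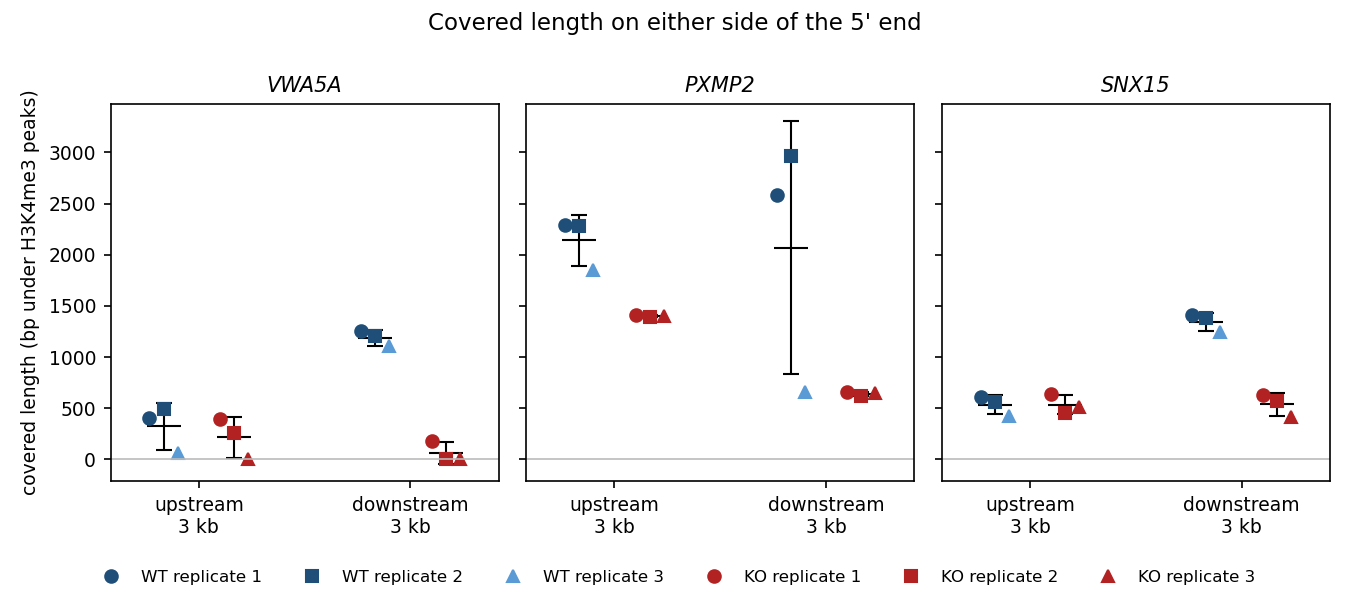
Covered length in bp (y axis) in the 3 kb upstream and downstream of the 5′ end of each gene, by library, WT in blue and KO in red. Points are libraries, and bars are mean and SD (n = 3). Downstream, WT and KO points are apart at VWA5A (1107 to 1252 against 0 to 183 bp) and SNX15 (1248 to 1413 against 412 to 632 bp), and upstream they are apart only at PXMP2 (1854 to 2294 against 1394 to 1413 bp).

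PXMP2 lies on chromosome 12 (ENSG00000176894, plus strand) with its main 5′ end at 132687587 and shares its peak with POLE, whose main 5′ end is at 132687342. The peak was the widest of the 3 genes, at 4877, 5245 and 2513 bp in WT and 2069, 2016 and 2045 bp in KO. A single peak covered both 5′ ends in each of the 6 libraries. The 3 KO widths were close to each other, while the WT widths spread with the kind of list.

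Upstream of PXMP2, which is into POLE, covered length was 2294, 2278 and 1854 bp in WT and 1413, 1394 and 1398 bp in KO. The genotypes did not overlap, with a difference of 740 bp (WT 2142 ± 250, KO 1402 ± 10.0, SD, n = 3, exact permutation p = 0.1), as at 40.6% of promoters. WT replicate 3 led the highest KO library by 441 bp, as large a lead as 2.51% of promoters had, where 43.6% had any upstream lead. Measured from the 5′ end of POLE, the same edge gave 2050, 2034 and 1610 bp of its own downstream side in WT and 1169, 1150 and 1154 bp in KO, and 3.97% of promoters had a downstream lead as large. The edge lay in the first intron of POLE in all 6 libraries.

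Inside PXMP2 covered length was 2583, 2967 and 659 bp in WT and 656, 622 and 647 bp in KO. WT replicate 3 was 3 bp above the highest KO library, a lead that 49.4% of promoters matched, and the KO mean was 97.4% of its value. Nearly all of the difference of 1428 bp (exact permutation p = 0.1) therefore came from WT replicates 1 and 2, whose lists have the wider peaks throughout. Among lists of like kind the lead of WT was thus on the POLE side of the shared promoter.

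The POLE-side difference also depends on how the lists are put on 1 scale. After scaling to the list median, upstream covered length at PXMP2 was 1601, 1625 and 2178 bp in WT and 1693, 1832 and 1946 bp in KO, which overlapped (difference -22.3 bp, exact permutation p = 1). WT replicate 3, the only WT list of the KO kind, stayed above the KO libraries and the other two WT libraries fell below them. Requiring a fold enrichment of at least 4 removed the PXMP2 peak of WT replicate 3, which was 3.87-fold enriched, and then the upstream difference was 122 bp (exact permutation p = 1) and the difference in total covered length 1331 bp (exact permutation p = 0.4). Within 1 kb of the 5′ end every library was covered in full upstream, so the difference lay wholly beyond that.

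PXMP2 has 5 annotated transcripts with 5 separate 5′ ends over 8358 bp. The ends at 132687587 and 132687642 lay under a peak in all 6 libraries. Those at 132690263 and 132690314, at exon 2, lay under a peak in WT replicate 2 alone, whose peak ran 2966 bp into the gene, while that of WT replicate 1 stopped just short of them. The end at 132695945 lay under no peak. The number of 5′ ends under a peak was 2, 4 and 2 in WT and 2, 2 and 2 in KO (exact permutation p = 1), so the extra ends belong to 1 library and not to a genotype. A lncRNA (ENSG00000256632) on the plus strand starts at 132688049, 462 bp after the main 5′ end of PXMP2 and under the peak in all 6 libraries.

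The contrast between the flanks was put in 1 number, downstream minus upstream covered length, chosen after the data were seen. It was 843, 706 and 1041 bp in WT and -208, -261 and 0 bp in KO at VWA5A. At SNX15 it was 801, 817 and 819 bp in WT and -5, 115 and -96 bp in KO. Every WT peak at both genes was weighted toward the gene, while in KO only SNX15 in replicate 2 was, and the 0 of VWA5A in KO replicate 3 is an absent peak. The differences were 1020 and 808 bp without overlap (exact permutation p = 0.1 for each), as at 15.4% of promoters. At PXMP2 it was 289, 689 and -1195 bp in WT and -757, -772 and -751 bp in KO, which overlapped (exact permutation p = 0.4), and WT replicate 3 was 444 bp below the highest KO library.

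The other ZBTB48 targets of the study are given side by side, with the same libraries behind them. At MTFP1, a gene of mitochondrial fission, downstream covered length was 1309, 1195 and 1170 bp in WT and 297, 0 and 255 bp in KO, and upstream it was 3000, 3000 and 2830 bp against 2793, 1805 and 2807 bp. At CIITA, the activator of MHC class II genes, downstream covered length was 3001, 3001 and 2693 bp in WT and 0, 1275 and 0 bp in KO. The downstream lead of WT replicate 3 was 873 bp at MTFP1 and 1418 bp at CIITA, next to the 924 bp of VWA5A, the 616 bp of SNX15 and the 3 bp of PXMP2. A downstream lead as large as that of MTFP1 was found at 1.13% of 14281 promoters, and one as large as that of CIITA at 0.154%. Downstream separation of the genotypes as such was found at 47.1% of promoters.

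**Figure D3:**
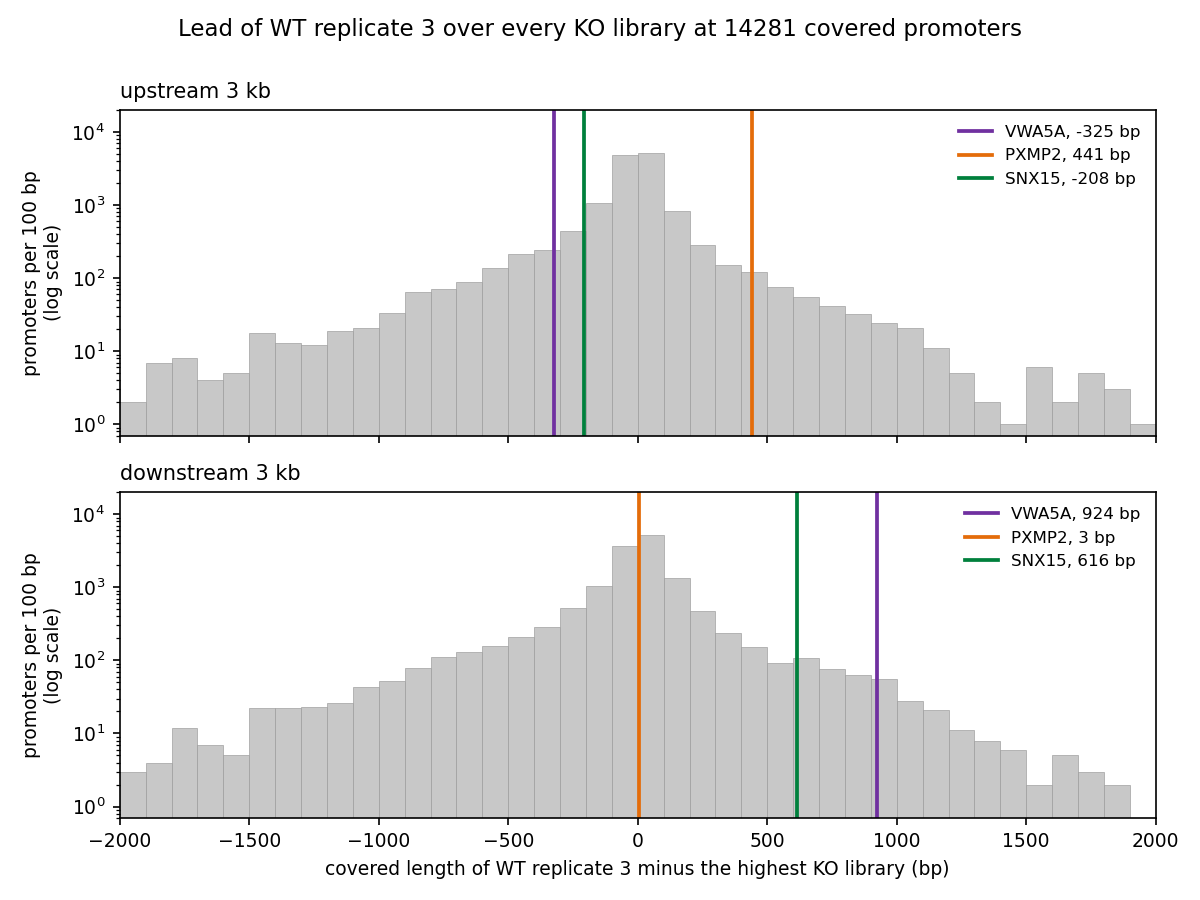
Histograms, with a log y axis, of the covered length of WT replicate 3 minus the highest KO library in bp (x axis, shown from -2000 to 2000) over 14281 promoters, for the 3 kb upstream and the 3 kb downstream. Coloured lines mark VWA5A, PXMP2 and SNX15. Downstream, SNX15 at 616 bp and VWA5A at 924 bp lie in the right tail with PXMP2 at 3 bp in the centre, and upstream PXMP2 at 441 bp is the one on the right.

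Values at neighbouring genes are given for comparison, and how far a difference reaches along the chromosome was not measured. On either side of VWA5A the nearest protein-coding 5′ ends are those of the olfactory receptor genes OR10G7 and OR10D3, and neither had a covered base in any library. The nearest other peak was 38.3 to 38.7 kb from the 5′ end of VWA5A in every library. VWA5A thus stood alone, and its neighbours give no value to set against it.

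SNX15 lies between the promoter that ARL2 shares with the ARL2-SNX15 readthrough gene, 22 bp apart, and that of SAC3D1, whose protein is found at centrosomes. Covered length at SNX15 was 2025, 1943 and 1677 bp in WT and 1269, 1031 and 920 bp in KO. At the ARL2-SNX15 promoter it was 2819, 2535 and 1677 bp in WT and 1708, 1568 and 1574 bp in KO, where WT replicate 3 was 31 bp below KO replicate 1. At SAC3D1 it was 2972, 2946 and 1820 bp in WT and 1488, 1395 and 1214 bp in KO. The genotypes did not overlap there or at SNX15, as at 50.8% of promoters.

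The mean of the neighbours of SNX15 was 2896, 2741 and 1749 bp in WT and 1598, 1482 and 1394 bp in KO (difference 970 bp, exact permutation p = 0.1). SNX15 minus that mean was -871, -798 and -71.5 bp in WT and -329, -451 and -474 bp in KO, which overlapped (difference -162 bp, exact permutation p = 0.5). By total length the values of SNX15 against its neighbours thus overlapped between genotypes. Within lists of like kind the order turned, as WT replicate 3 exceeded the KO mean by 604 bp at SNX15 and by 257 bp at its neighbours. On the downstream side the KO mean was 43.2% of WT replicate 3 at SNX15, 75.2% at SAC3D1 and 101% at ARL2-SNX15.

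Around PXMP2 the neighbours that share no peak with it are P2RX2, an ATP-gated ion channel gene, and PGAM5, a gene for a mitochondrial phosphatase. P2RX2 was covered by 106 bp in KO replicate 1 and by none in the other libraries. Covered length at PGAM5 was 4193, 3117 and 1949 bp in WT and 2033, 1945 and 1814 bp in KO, where WT replicate 3 was 84 bp below KO replicate 1. At PXMP2 that library was 444 bp above KO replicate 1, whose 2069 bp was the highest KO value.

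PXMP2 minus the mean of its neighbours was 2781, 3687 and 1539 bp in WT and 1000, 1044 and 1138 bp in KO. Every WT library was above every KO library (difference 1608 bp, exact permutation p = 0.1), and this held after scaling to the list median, where the difference was 742 bp. It did not hold with peaks of at least 4-fold enrichment, where the WT replicate 3 peak is removed (753 bp, exact permutation p = 0.7), or with 1 kb windows, where WT replicate 3 at 702 bp was below KO replicate 3 at 740 bp (difference 196 bp, exact permutation p = 0.2). The neighbours alone differed by 560 bp (exact permutation p = 0.2). That mean takes in P2RX2, which was nearly uncovered, so less than the length of PGAM5 is subtracted. PGAM5 alone differed by 1156 bp between the genotype means, and PXMP2 by 2168 bp. How common a separation from neighbours is over all promoters was not computed. Over all 21 tests at the 3 genes and their neighbours, 13 gave the smallest p of 0.1, and the smallest Benjamini-Hochberg adjusted value of these exact tests was 0.162. These are not separate results, as peak width equals covered length at each of the 3 genes, and so does VWA5A minus its uncovered neighbours. A p of 0.1 is that of full separation, which covered length had at 50.8% of 14422 promoters.

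**Figure D4:**
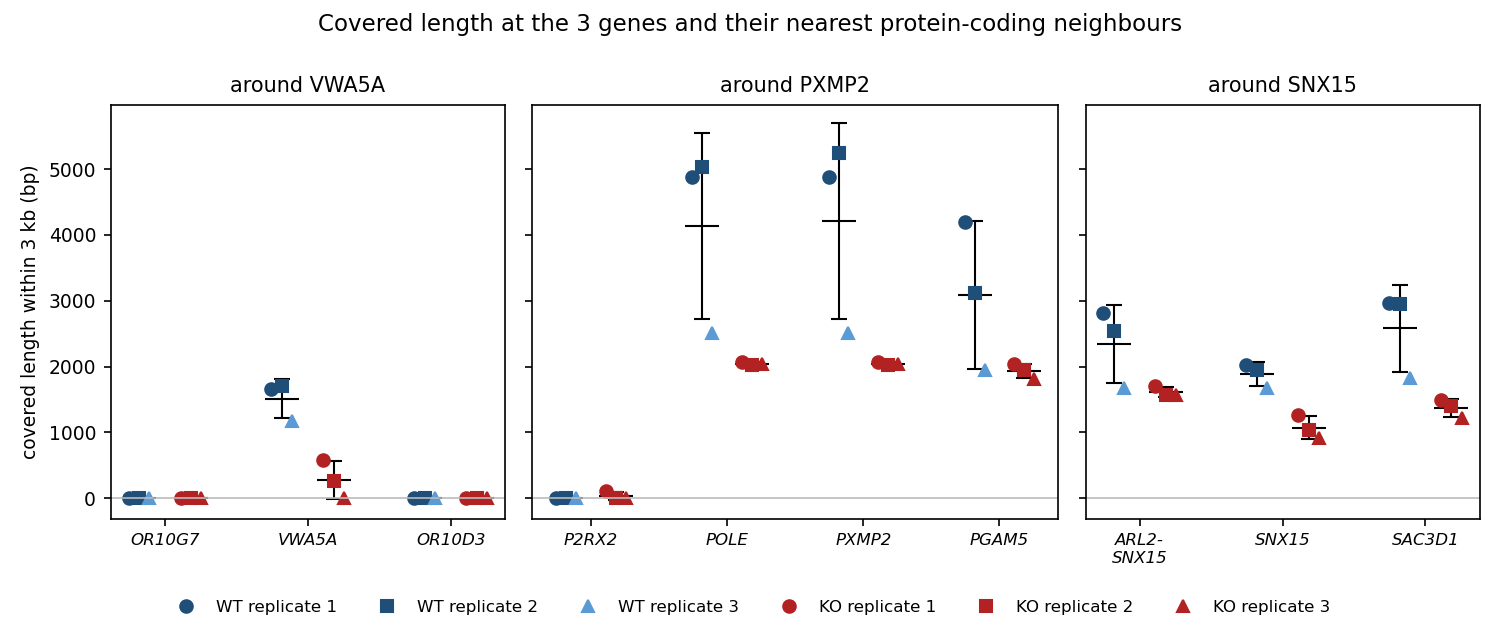
Covered length in bp within 3 kb of the 5′ end (y axis) at the 3 genes and at their nearest protein-coding neighbours in genomic order, by library (WT blue, KO red). Bars are mean and SD (n = 3). OR10G7 and OR10D3 are at 0 in all 6 libraries, POLE is shown just before PXMP2, with which it shares a peak, and at PGAM5 and ARL2-SNX15 WT replicate 3 lies among the KO libraries.

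Relatives of the 3 genes were counted in the same way, beside the 50.8% of all promoters. Of the sorting nexins, which carry cargo through endosomes, 18 of 28 covered genes (64.3%) had every WT library above every KO library in covered length, with a median difference of 986 bp against 965 bp over all promoters. A downstream lead of WT replicate 3 of at least 500 bp was found at 3 of the 28, SNX1, SNX9 and SNX15 (871, 887 and 616 bp), and at 3.39% of all promoters. Such a lead is thus not a mark of SNX15 alone among its relatives. For the retromer, the endosomal coat with which some sorting nexins work, it was 3 of 4 for covered length and 0 of 4 for the downstream lead.

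Of all 20033 protein-coding promoters 14422 were covered in any library. Of the MPV17 and PXMP2 family, 3 of 4 genes were covered and PXMP2 was the single one with every WT library above every KO library. MPV17 measured 3201, 3686 and 1872 bp in WT and 1889, 1816 and 1665 bp in KO. Among the peroxisome biogenesis factors, which build the organelle, the count was 6 of 16, and among other peroxisomal membrane proteins 6 of 8, with no downstream lead of 500 bp in either list. Of the 4 subunits of DNA polymerase epsilon 3 were separated, POLE among them. Of the genes with a von Willebrand factor A domain 9 of 19 were covered and 4 of those were separated, and VWA5A was the single one with a downstream lead of at least 500 bp.

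ZBTB48 itself kept a peak at its promoter in all 6 libraries, of 3161, 3330 and 1821 bp covered length in WT and 1855, 1555 and 1241 bp in KO. WT replicate 3 lay 34 bp below KO replicate 1. A peak at the promoter says nothing of whether the protein was made, so it is no check of the knockout. The constitutive genes ACTB and GAPDH also had WT replicate 3 within the range of the KO libraries in total covered length (3676 bp against 3099 to 3906 bp, and 3377 bp against 3236 to 3424 bp), though downstream of ACTB it led by 611 bp.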

How the data were processed

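H3K4me3 ChIP-seq lists of 3 WT and 3 ZBTB48 KO clones were compared, grouped by the genotype in their labels. Per the study's methods, the authors aligned trimmed reads to GRCh38 with Bowtie2 (2.3.5.1), kept uniquely mapped reads without duplicates, and called broad peaks in each library with MACS2 (2.1.1.2), versions per the submitters' processing notes. Each deposited list holds peak positions, a score (10 times the −log10 q, not used here), a fold enrichment ratio and −log10 p and q values. These deposited values, averages over a broad peak, served only to rank or filter peaks within a list. As no counts are in the lists, the reads under each peak are not known here, and a missing peak means only that none was called.

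Positions are 1-based. The 5′ ends came from GENCODE release 44, and the members' neighbours were the nearest protein-coding 5′ ends on either side that shared no peak with them. Genotypes were compared by two-sided exact permutation of the 6 libraries, adjusted over 21 tests by the Benjamini-Hochberg method. The genes, gene lists, neighbours and tests were chosen with earlier results of these data known. Named genes were the members, their neighbours, the other ZBTB48 targets, ZBTB48, ACTB and GAPDH, and list members named for their values were chosen after those were seen. Alternatives were stricter peaks, equal list sizes, 1 and 5 kb windows, all 5′ ends, merged gaps, the replicate number as a block, left-out libraries, WT replicate 3 alone and, added after seeing the data, scaling to the list median. No pair of lists shared over 2 identical peaks. The steps ran in Python 3.11.15 with numpy 2.4.6, pandas 2.3.3 and matplotlib 3.10.9, and the counting was tested on simulated lists.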

Additional observations from a re-analysis of the deposited data

How the results depend on the processing

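Of 369 alternative values, 353 did not reverse the direction of the difference and 16 did, and no test could pass 0.05 under any of them. Part of the 353 could not reverse. The replicate block repeats the main difference, and the differences of 0 at the neighbours of VWA5A and in the 5′ ends of SNX15 have no direction. Peak width also repeats covered length in the main setting, so the count is no measure of stability. Covered length at each of the 3 genes and downstream covered length at each kept its direction under every alternative. Downstream of PXMP2 this rests on WT replicates 1 and 2. Scaled to the list median, that length was 1803, 2116 and 774 bp in WT and 786, 817 and 901 bp in KO, which overlapped (exact permutation p = 0.4). With WT replicate 3 alone the difference there was 17.3 bp. In 66 of the 369 alternatives the difference moved by over 1.5 times. At PXMP2 the difference in covered length was 2168 bp, but 245.3 bp with 1 kb windows, 707.5 bp after scaling to the list median and 469.7 bp with WT replicate 3 alone. At SNX15 it was 808.3 bp, but 462.3 bp with 1 kb windows and 204.5 bp after scaling, and its downstream difference after scaling was 451.0 bp. With covered lengths scaled to the list median, the difference was -31.3 bp upstream of VWA5A, -22.3 bp upstream of PXMP2, -246.5 bp upstream of SNX15, -34.0 bp at the neighbours of PXMP2 and 128.5 bp for SNX15 minus its neighbours. With WT replicate 3 as the single WT library it was -151.3 bp upstream of VWA5A, -105.3 bp upstream of SNX15, -8.5 bp at the neighbours of PXMP2, 346.3 bp for SNX15 minus its neighbours and -435.0 bp for PXMP2 downstream minus upstream. With 1 kb windows SNX15 minus its neighbours was 121.7 bp. Leaving out each library in turn gave -2.0 to 235.7 bp upstream of VWA5A, with -2.0 bp without KO replicate 3, and -38.3 to 53.2 bp upstream of SNX15, with -38.3, -13.8, -37.8 and -12.8 bp without WT replicates 1 and 2 and KO replicates 2 and 3. The cause of these shifts was not tested beyond the construction of each alternative.

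The number of promoters with every WT library above every KO library was 7330, and it was 4436 (31.7%) with peaks of at least 4-fold enrichment, 829 (5.75%) after scaling, 13027 without WT replicate 3 and 11485 without KO replicate 1. With the replicate number as a replicate block, where 3 pairs cannot go below p = 0.25, the differences are those without the block by construction (downstream 1126 bp at VWA5A and 808 bp at SNX15, exact p = 0.25 for each), so the block gives no information on stability. The numbers name separate clones, and the correlations of same-numbered libraries' deviations were -0.00952, 0.0171 and 0.0932, so the libraries were not taken as pairs.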
